A study of Mus musculus with 4 samples.

Results

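Neuropeptide precursor and granin genes were examined in astrocyte preparations from the mouse cortex with Ezh2 intact (Ezh2 f/f) or deleted in astrocytes (Ezh2 cKO). The set was chosen by gene name and comprises Cck, Penk, Pdyn, Tac1, Crh, Cort, Adcyap1, Scg2, Chga and Chgb, and all 10 were found among the 29224 genes of the deposited tables. Cells were taken from the cerebral cortex at P5 with magnetic beads against GLAST (ACSA-1), a glutamate transporter of astrocytes, and 2 libraries per genotype were sequenced. Mice of both groups carried floxed alleles of Ezh2, which encodes the histone methyltransferase of Polycomb repressive complex PRC2. The Ezh2 cKO mice also carried Aldh1l1-icre, so that Cre was made where the astrocyte gene Aldh1l1 is active. The labels do not say whether the libraries of a group came from separate animals or from pools, so p-values measure only the spread between these libraries, which may be technical.

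Neuropeptides are made as large precursors that enter the regulated secretory pathway, where convertases cut them at pairs of basic residues, and they are stored in dense-core vesicles until calcium triggers their release. Granins are acidic proteins that are packed into the same vesicles and are themselves cut into peptides. In the cerebral cortex the precursors are best known from subsets of neurons, with Cck in many interneurons and pyramidal cells and Cort, Crh and Tac1 in groups of interneurons, while Penk, Pdyn and Tac1 are also abundant in neurons of the striatum. Astrocytes too can express granins and some peptide precursors.

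Total counts ranged from 16273308 to 17522152 per library. A count of 3, taken as the limit of detection for counting error, corresponded to 0.171 to 0.184 CPM (counts scaled to library size). Counts of Ezh2 itself were 434 and 327 in the controls and 211 and 164 after deletion, so that its log2 fold change was -1.11 ± 0.16 (SE, edgeR's adjusted p = 3.26e-05). Each fold change sets the deleted group over its controls and comes from edgeR's quasi-likelihood test on counts scaled by the TMM method, and a gene was called at an adjusted p under 0.05 (Benjamini-Hochberg over 16793 genes). The labelled cell type was checked with 10 astrocyte and 10 neuron markers, none of which was at 0 in every library. The astrocyte markers summed to 89.2 to 90.9 FPKM (reads scaled to gene length and library total) in Ezh2 f/f and to 439 to 489 in Ezh2 cKO, with 8 of 10 higher, and the neuron markers summed to 2237 to 2318 and to 2048 to 2063 FPKM, with 9 of 10 higher and 1, Tubb3, lower. The neuron list thus had the larger sum in both groups, although astrocytes were the labelled cells, and Tubb3 alone was most of it. Of 8 excitatory neuron markers 2, Slc17a7 and Camk2a, were higher and 4 lower. This list summed to 303 to 339 FPKM in Ezh2 f/f and to 657 to 683 FPKM in Ezh2 cKO. Of 5 endothelial markers 1 was higher and 1 lower. All 5 markers of oligodendrocyte precursors, all 6 of oligodendrocytes and all 6 of microglia were higher. Mobp of the oligodendrocyte markers and Aif1 and P2ry12 of the microglia markers passed the filter on low counts only through Ezh2 cKO. Without them all 5 and all 4 remaining markers were higher. These counts stand beside 34.7% higher and 33.6% lower among all genes tested. The part that these shifts in markers play in the results that follow was not tested. More cells of a type and more RNA per cell cannot be told apart in such libraries.

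The upstream sequences of the granins and of Cck, the member with the highest level in Ezh2 cKO, are shown first, since the granins are related in function while 2 of the 3 were called higher. RefSeq promoter windows on GRCm38.p6 were matched for 8 of the 10 genes, not for Penk and Crh, some with more than 1 window, and the 250 bases before the annotated start are given 5′ to 3′ on the gene's strand. Capitals mark the cyclic AMP response element TGACGTCA, which CREB family factors are known to bind, or its short form TGACG, and both strands were searched. The long form holds the short form on both strands, so a window with the long form also counts for the short form.
Chgb chr2:132781392-132781641 (+ strand): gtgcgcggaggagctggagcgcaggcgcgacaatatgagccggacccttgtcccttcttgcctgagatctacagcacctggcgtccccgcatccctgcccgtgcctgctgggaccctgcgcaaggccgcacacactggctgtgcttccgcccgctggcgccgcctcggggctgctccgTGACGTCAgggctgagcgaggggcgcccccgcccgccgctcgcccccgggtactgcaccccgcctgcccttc
Scg2 chr1:79440027-79440276 (- strand): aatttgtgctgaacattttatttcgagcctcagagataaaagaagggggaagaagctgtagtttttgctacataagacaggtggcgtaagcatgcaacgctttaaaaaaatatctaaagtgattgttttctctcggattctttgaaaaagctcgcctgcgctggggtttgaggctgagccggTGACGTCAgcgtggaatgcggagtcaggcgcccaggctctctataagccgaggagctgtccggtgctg
Chga chr12:102554691-102554940 (+ strand): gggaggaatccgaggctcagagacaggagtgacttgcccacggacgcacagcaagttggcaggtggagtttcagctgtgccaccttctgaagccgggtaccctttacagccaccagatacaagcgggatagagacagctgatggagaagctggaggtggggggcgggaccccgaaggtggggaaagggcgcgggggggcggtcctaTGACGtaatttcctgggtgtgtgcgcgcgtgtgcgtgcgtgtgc
Cck chr9:121495695-121495944 (- strand): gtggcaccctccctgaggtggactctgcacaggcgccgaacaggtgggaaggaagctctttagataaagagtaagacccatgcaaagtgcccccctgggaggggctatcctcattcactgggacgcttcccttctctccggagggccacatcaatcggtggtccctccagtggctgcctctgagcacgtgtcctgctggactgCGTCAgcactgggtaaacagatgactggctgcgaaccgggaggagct

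The long form was found in 2 of 10 windows of the set, those of Chgb and Scg2, where it began 72 and 68 bases before the start. Among all 32851 promoter windows of that length, 1.55% held it. The short form was present in 8 of 10 windows, from 7 of the 8 genes, against 17.8% of all windows. The windows of Adcyap1 overlap and hold the same 1 site, so that it enters this count of windows more than once. The short form began 44 bases before the start in Chga and 47 bases before it in Cck. Neither window of Pdyn held these letters. A match describes the sequence only. Of the genes with the long form, Chgb rose and Scg2 did not pass the test.

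Of the 10 genes, 9 rose in Ezh2 cKO and 0 fell in edgeR. Without adjustment, at p under 0.05, these numbers stayed at 9 and 0, and no gene of the set was called lower by DESeq2 or limma. The background was high, since 34.7% of all genes tested were called higher and 33.6% lower. The median log2 fold change was 1.43 for the set, 0.02 for all genes tested, 1.35 for neuron markers and 2.02 for astrocyte markers. In 9 of 10 genes of the set both Ezh2 cKO libraries lay above both Ezh2 f/f libraries, as did 42.8% of all genes. At least a 2-fold rise was called in 6 of 10 genes of the set, beside 19.0% of all genes. All 10 passed the filter on low counts, Crh only through its Ezh2 cKO libraries, the group in which it was high. Among genes that passed in both groups, a restriction added after the data were seen, 8 of 9 genes of the set were higher, with a median log2 fold change of 1.22, beside 33.7% of all such genes.

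In the deposited coordinates, whose build is uncertain, the genes lie as follows, with the strand in brackets. Adcyap1 (ENSMUSG00000024256) lies at chr17:93506445-93513965 (+), Cck (ENSMUSG00000032532) at chr9:121318890-121324760 (-), Chga (ENSMUSG00000021194) at chr12:102521228-102531287 (+) and Chgb (ENSMUSG00000027350) at chr2:132623198-132636999 (+). Cort (ENSMUSG00000028971) lies at chr4:149209491-149211220 (-), Crh (ENSMUSG00000049796) at chr3:19747565-19749560 (-) and Pdyn (ENSMUSG00000027400) at chr2:129528485-129541764 (-). Penk (ENSMUSG00000045573) lies at chr4:4133531-4138819 (-), Scg2 (ENSMUSG00000050711) at chr1:79412386-79417837 (-) and Tac1 (ENSMUSG00000061762) at chr6:7554879-7565834 (+).

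**Figure D1:**
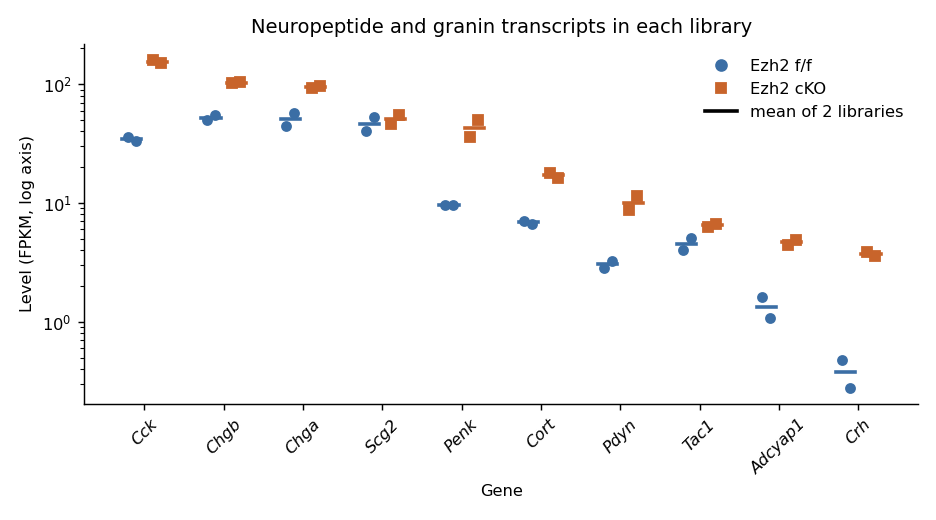
Level of each gene in FPKM on a log axis, in 2 Ezh2 f/f libraries (circles) and 2 Ezh2 cKO libraries (squares), with horizontal lines at the means. Scg2 is the gene in which the groups overlap, and Cck goes from 34.6 to 155 FPKM on average.

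Levels per length were compared within each group. In Ezh2 f/f the 3 granins came first, with mean levels of 52.3 ± 3.77 FPKM for Chgb, 50.5 ± 8.98 for Chga and 46.6 ± 8.39 for Scg2 (SD, n = 2), and their ranges over the libraries overlapped. Cck (34.6 ± 1.85 FPKM), Penk (9.60 ± 0.0106), Cort (6.90 ± 0.258), Tac1 (4.52 ± 0.741), Pdyn (3.06 ± 0.305), Adcyap1 (1.34 ± 0.373) and Crh (0.377 ± 0.139) followed, each separated from its neighbour in both libraries. In Ezh2 cKO the order was Cck (155 ± 5.004 FPKM), Chgb (103 ± 1.33), Chga (94.7 ± 2.13), Scg2 (50.5 ± 6.48), Penk (43.1 ± 10.2), Cort (17.1 ± 1.13), Pdyn (10.03 ± 1.86), Tac1 (6.47 ± 0.212), Adcyap1 (4.69 ± 0.325) and Crh (3.72 ± 0.183). Only Scg2 and Penk overlapped there among neighbours. Cck thus moved from the fourth place to the first, and Pdyn passed Tac1. Summed over the set, levels were 196 and 224 FPKM in Ezh2 f/f against 477 and 500.2 FPKM in Ezh2 cKO. The granins made up 68.6% and 73.5% of this sum in Ezh2 f/f, but 50.6% and 51.1% in Ezh2 cKO.

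Cck, which encodes cholecystokinin, the most abundant peptide precursor of the set, stood highest of the set in Ezh2 cKO. Its level was 35.9 and 33.3 FPKM in Ezh2 f/f against 159 and 152 FPKM in Ezh2 cKO. The groups stood well apart, and the libraries of each group lay close together. The log2 fold change was 2.08 ± 0.10 (SE, edgeR's adjusted p = 5.98e-10), a 4.23-fold rise with a 95% interval of 3.66 to 4.88. Cckbr, the cholecystokinin receptor that prevails in the brain, was low in Ezh2 f/f, with 17 and 13 counts, and reached 487 and 417 counts in Ezh2 cKO. Its log2 fold change was 4.81 ± 0.21 (SE, adjusted p = 4.60e-10), the largest among the 15 receptor genes tested. Cckar, the other cholecystokinin receptor, had between 2 and 8 counts per library and was not tested.

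Among the opioid precursors, Penk encodes the enkephalins, which act mainly on delta and mu receptors. It was at 9.60 and 9.59 FPKM in Ezh2 f/f against 35.9 and 50.3 FPKM in Ezh2 cKO. Replicate 2 of Ezh2 cKO was 1.37 times replicate 1 in CPM, the widest gap between Ezh2 cKO libraries in the set, yet both were far above Ezh2 f/f. Penk thus had a log2 fold change of 2.08 ± 0.14 (SE, adjusted p = 1.75e-08), a 4.23-fold rise (95% interval 3.43 to 5.22). On the opposite strand the lncRNA gene A830012C17Rik shares 499 bases with Penk, but it had 0 counts in 3 libraries and 1 in the other.

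Pdyn, the precursor of the dynorphins, which act on the kappa receptor, was at 2.85 and 3.28 FPKM in Ezh2 f/f against 8.71 and 11.3 FPKM in Ezh2 cKO. It rose by a log2 fold change of 1.63 ± 0.16 (SE, adjusted p = 6.84e-07), or 3.09-fold (95% interval 2.43 to 3.92). As for Penk, the higher of the Ezh2 cKO libraries was replicate 2, at 1.27 times replicate 1 in CPM. The kappa receptor gene Oprk1 rose from 3 and 7 counts to 60 and 55 counts (log2 fold change 3.40 ± 0.43 SE, adjusted p = 7.94e-06). Oprk1 passed the filter only through Ezh2 cKO, and leaving out Ezh2 f/f replicate 2 moved its value to 4.17. The delta receptor gene Oprd1 rose from 24 and 13 counts to 85 and 80 counts (log2 fold change 2.06 ± 0.31 SE, adjusted p = 3.97e-05). Oprm1, for the mu receptor, had 2 and 2 counts in Ezh2 f/f against 7 and 13 in Ezh2 cKO, too few to be tested.

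Tac1 encodes substance P and neurokinin A and showed the smallest of the called changes. Its level was 4.00 and 5.04 FPKM in Ezh2 f/f against 6.32 and 6.61 FPKM in Ezh2 cKO, so that the groups did not overlap. Tac1 thus had a log2 fold change of 0.43 ± 0.15 (SE, adjusted p = 0.0177), a 1.35-fold rise with a 95% interval of 1.08 to 1.68. The call was lost with DESeq2 (adjusted p = 0.0553), with limma on unfiltered FPKM (0.0564), and without Ezh2 f/f replicate 1 (log2 fold change 0.28, adjusted p = 0.124), Ezh2 cKO replicate 1 (0.0868) or Ezh2 cKO replicate 2 (0.108), within a range of 6.47e-04 to 0.124 over all alternatives. Tacr1, for the substance P receptor, did not pass the test either way (log2 fold change -0.25 ± 0.18 SE, adjusted p = 0.240).

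Genes of striatal neurons moved in the same direction as these 3 precursors, although cortex was the labelled tissue. Drd1 had 90 and 64 counts in Ezh2 f/f against 328 and 349 in Ezh2 cKO (log2 fold change 2.05). Drd2, Adora2a and Ppp1r1b, the latter encoding DARPP-32, had log2 fold changes of 0.57, 1.17 and 1.35, and all 4 genes were called higher. They belong to a list of 8 striatal and hypothalamic markers, of which 5 were tested and 1, Avp, was lower. The call of Drd2 was lost without Ezh2 cKO replicate 2 (log2 fold change 0.43, adjusted p = 0.0722). Together the 4 genes summed to 44.9 and 38.2 FPKM in Ezh2 f/f and to 94.1 and 118 FPKM in Ezh2 cKO. In Ezh2 cKO their CPM in replicate 2 was 1.08 to 1.40 times that in replicate 1. The same ratio was 1.37 for Penk, 1.27 for Pdyn and 1.03 for Tac1. In Ezh2 f/f it was 0.77 to 0.90 for the 4 genes, but 1.01 for Penk, 1.16 for Pdyn and 1.27 for Tac1. The part of the striatal genes in the rise of Penk, Pdyn and Tac1 was not tested.

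Crh, which encodes corticotropin-releasing hormone, the peptide that starts the hormonal stress response and is also made by cortical interneurons, had the largest fold change of the set from the lowest level. It had 11 and 6 counts in Ezh2 f/f against 88 and 79 counts in Ezh2 cKO, or 0.476 and 0.279 FPKM and 3.85 and 3.59 FPKM. Crh thus had a log2 fold change of 3.19 ± 0.35 (SE, adjusted p = 1.84e-06), a 9.12-fold rise whose 95% interval of 5.44 to 15.3 was the widest of the set. Since Crh passed the filter only through the group where it was high, it was also fitted with no filter on low counts, where the log2 fold change was 3.19 (adjusted p = 4.05e-06). On the FPKM scale with a pseudocount of 1, which compresses low values, it was 1.78. Its receptor and binding protein genes were also measured. Crhr1, the main receptor in the cortex, rose from 210 and 207 to 992 and 836 counts (log2 fold change 2.04 ± 0.12 SE, adjusted p = 6.14e-09). Crhbp, whose product sequesters the hormone, rose from 44 and 41 to 219 and 181 counts (log2 fold change 2.14 ± 0.21 SE, adjusted p = 6.32e-07). Crhr2, the other receptor, was at 76 and 70 counts in Ezh2 f/f against 51 and 53 in Ezh2 cKO. It was called lower (log2 fold change -0.58, adjusted p = 0.0443), but that call was lost under 8 of 10 alternatives, each left-out library among them (adjusted p between 0.0393 and 0.184).

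**Figure D2:**
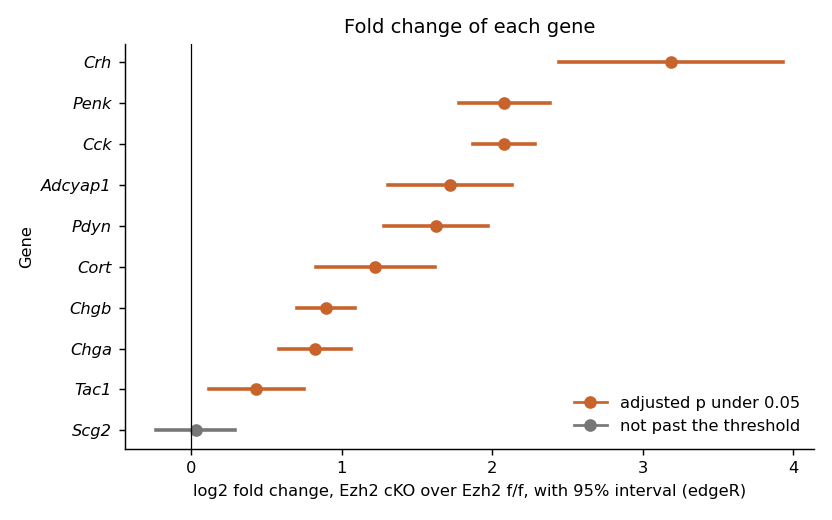
Log2 fold change of each gene, Ezh2 cKO over Ezh2 f/f, with its 95% interval from edgeR, in orange where the adjusted p is under 0.05 and in grey where it is not. The intervals of 9 genes lie above 0, and that of Scg2 spans it from -0.23 to 0.29.

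Cort encodes cortistatin, a relative of somatostatin that binds the same receptors. It was at 7.08 and 6.72 FPKM in Ezh2 f/f against 17.9 and 16.3 FPKM in Ezh2 cKO, and both groups were tight. Cort thus had a log2 fold change of 1.22 ± 0.18 (SE, adjusted p = 4.17e-05), a 2.34-fold rise (95% interval 1.78 to 3.07). Sst, the somatostatin gene, was far more abundant, at 244 and 203 FPKM in Ezh2 f/f against 346 and 334 FPKM in Ezh2 cKO, with a log2 fold change of 0.52 ± 0.10 (SE). Of the 5 somatostatin receptor genes, a group formed after values were seen, 4 were tested. Of these 3 rose, beside 34.7% of all genes tested. They were Sstr1 (log2 fold change 1.64), Sstr3 (2.15) and Sstr4 (3.67, from 9 and 2 counts to 66 and 86). Sstr4 passed the filter only through Ezh2 cKO, and its value was 5.03 when Ezh2 f/f replicate 1 was left out and 3.03 when replicate 2 was. Sstr2, the most abundant of them in both groups, was at 14.8 and 14.5 FPKM in Ezh2 f/f against 15.8 and 15.9 FPKM in Ezh2 cKO, which gave a log2 fold change of 0.03 ± 0.11 (SE, adjusted p = 0.817).

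Cort is a marker of interneurons. Of 10 interneuron markers 3 were higher, 4 lower and 3 not called, near the 34.7% higher and 33.6% lower among all genes, with a median log2 fold change of -0.13. They summed to 423 to 492 FPKM in Ezh2 f/f and 539 to 551 FPKM in Ezh2 cKO, and none was at 0 in every library. Dlx2 and Lhx6, regulators of young interneurons, were among the lower genes (log2 fold change -2.41 and -1.73), whereas Vip and Slc32a1, the latter encoding the vesicular GABA transporter, were among the higher ones. Vip passed the filter only through Ezh2 cKO. The part the interneuron markers play in the rise of Cort was not tested.

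Adcyap1 encodes PACAP, a peptide that raises cyclic AMP in its target cells. It had 106 and 66 counts in Ezh2 f/f against 292 and 310 in Ezh2 cKO, or 1.60 and 1.07 FPKM against 4.46 and 4.92 FPKM. The Ezh2 f/f libraries differed from each other, but both were below either Ezh2 cKO library. The log2 fold change was 1.72 ± 0.19 (SE, adjusted p = 2.43e-06), a 3.29-fold rise (95% interval 2.47 to 4.39). Its specific receptor gene Adcyap1r1, at 33.1 and 37.5 FPKM in Ezh2 f/f against 35.4 and 32.3 FPKM in Ezh2 cKO, was by far the most abundant receptor gene of the list and did not pass the test (log2 fold change -0.14 ± 0.10 SE, adjusted p = 0.206, 95% interval -0.35 to 0.07). Of the receptors shared by PACAP and VIP, Vipr1 rose (log2 fold change 0.74, adjusted p = 0.00108) and Vipr2 was at -0.05 (adjusted p = 0.878).

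**Figure D3:**
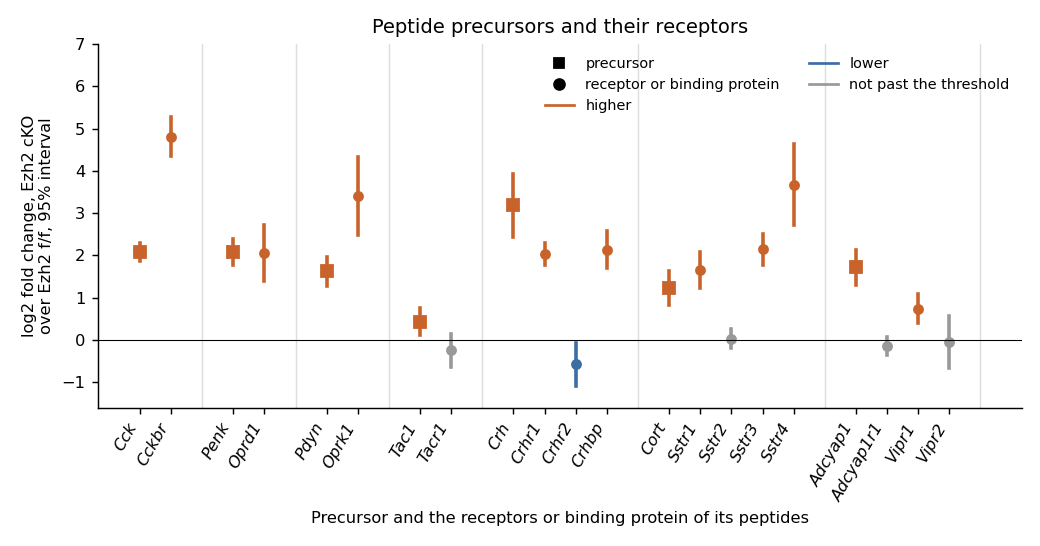
Log2 fold change with 95% interval for each precursor (squares) and for the tested receptors or binding protein of its peptides (circles), in orange where called higher, blue where called lower and grey where not past the threshold. Cckbr stands highest at 4.81, while Tacr1, Sstr2, Adcyap1r1 and Vipr2 lie near 0.

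Of the granins, 2 rose and 1 did not pass the test. Chga, for chromogranin A, was at 44.1 and 56.8 FPKM in Ezh2 f/f against 93.2 and 96.2 FPKM in Ezh2 cKO. Its log2 fold change was 0.82 ± 0.11 (SE, adjusted p = 1.56e-05), a 1.77-fold rise (95% interval of the log2 fold change 0.58 to 1.06). Chgb, for chromogranin B, was at 49.7 and 55.0 FPKM in Ezh2 f/f against 102 and 104 FPKM in Ezh2 cKO. Its log2 fold change was 0.90 ± 0.09 (SE, adjusted p = 8.64e-07), a 1.86-fold rise (95% interval 1.63 to 2.13). The intervals of the chromogranins overlap, and their difference was not tested.

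Scg2, for secretogranin II, the precursor of secretoneurin, did not pass the test. It was at 40.7 and 52.6 FPKM in Ezh2 f/f against 46.0 and 55.1 FPKM in Ezh2 cKO, and the groups overlapped. In each group replicate 2 was the higher library, and the spread within a group was larger than the difference between the means. The log2 fold change was 0.03 ± 0.12 (SE, adjusted p = 0.834), with a 95% interval for the fold change of 0.851 to 1.23. The sign depended on single libraries, at -0.14 when Ezh2 f/f replicate 1 was left out and 0.23 when replicate 2 was. The adjusted p was 0.0553 in the latter case and between 0.0553 and 0.933 over the alternatives. Its interval lay below those of Chga and Chgb, but the difference between these genes was not itself tested.

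Further proteins of the dense-core vesicle were taken as a list of 19 genes, all tested, of which 14 were higher, 1 lower and 4 not called. Their median log2 fold change was 0.47, and 73.7% were higher, beside 34.7% of all genes. Among the higher genes, Resp18 kept its call under 4 of 12 alternatives, Hid1 under 5 of 12 and Rph3al under 5 of 9. With DESeq2, 11 genes of the list were higher. Among the granin-like genes of the list, Vgf (log2 fold change 0.96), Scg5 (0.42), Pcsk1n (0.42) and Scg3 (0.25) were higher. Gnas, whose locus also encodes the granin-like NESP55, was lower. These genes were grouped after their values were seen. The call of Scg3 was lost with Ezh2 f/f replicate 1 or Ezh2 cKO replicate 2 left out (adjusted p up to 0.133). Larger changes were seen in genes of the vesicle membrane and its release. Rab27b, a GTPase of vesicle docking, had 16 and 36 counts in Ezh2 f/f against 282 and 300 in Ezh2 cKO (log2 fold change 3.38, adjusted p = 9.64e-08, and 4.14 without Ezh2 f/f replicate 2). Cadps2 and Cadps, which prime dense-core vesicles for release, were at 2.85 and 1.76, and Ptprn2, which encodes a protein of the vesicle membrane, at 1.30. Its relative Ptprn rose from 15.3 and 18.2 FPKM to 83.0 and 79.7 FPKM. Syt4 and Syt7, for synaptotagmins, were at -0.04 and -0.05 and were not called. The lower gene was Gnas, at -0.34, whose locus holds several overlapping transcripts, so that its count is uncertain, and its call was lost with limma and without Ezh2 cKO replicate 2.

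The enzymes that cut, trim and break down peptides included genes of both directions. Of 24 genes, all tested, 13 were higher, 6 lower and 5 not called, beside 34.7% higher and 33.6% lower among all genes, and their median log2 fold change was 0.40. The convertases of the regulated pathway, Pcsk1 and Pcsk2, both rose. Pcsk1 went from 25 and 33 counts to 155 and 155 counts (log2 fold change 2.32 ± 0.24 SE, adjusted p = 1.33e-06), and Pcsk2 from 8.23 and 8.44 FPKM to 18.3 and 18.7 FPKM (log2 fold change 1.07 ± 0.09 SE, adjusted p = 1.72e-07). The 4 convertases that act in most cells, Furin, Pcsk6, Pcsk7 and Pcsk5, were all called lower, at log2 fold changes of -0.86, -0.80, -0.69 and -0.43. The call of Pcsk5 was lost under 5 of 12 alternatives, those with limma and those without either Ezh2 cKO library (adjusted p up to 0.264). This division of the convertases was made after their values were seen.

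Cpe, the carboxypeptidase that trims the cut ends, was the most abundant of these enzymes, at 228 and 255 FPKM in Ezh2 f/f against 515 and 543 FPKM in Ezh2 cKO (log2 fold change 1.05 ± 0.08 SE, adjusted p = 5.29e-08). Pam, which amidates the ends of peptides such as cholecystokinin and substance P, was at 0.26 (adjusted p = 0.0316), and its call was lost under 5 of 12 alternatives, among them DESeq2 and the fits without Ezh2 f/f replicate 2 or Ezh2 cKO replicate 2 (adjusted p up to 0.248). Among 10 peptidases that break peptides down, 5 rose, 1 fell and 4 were not called, beside 34.7% higher and 33.6% lower among all genes. This group was formed after values were seen. Dpp4 was at 1.94, Ide at 0.82 and Mme, which encodes the enkephalin-degrading enzyme neprilysin, at 0.77, while Ece1 was at -0.47.

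**Figure D4:**
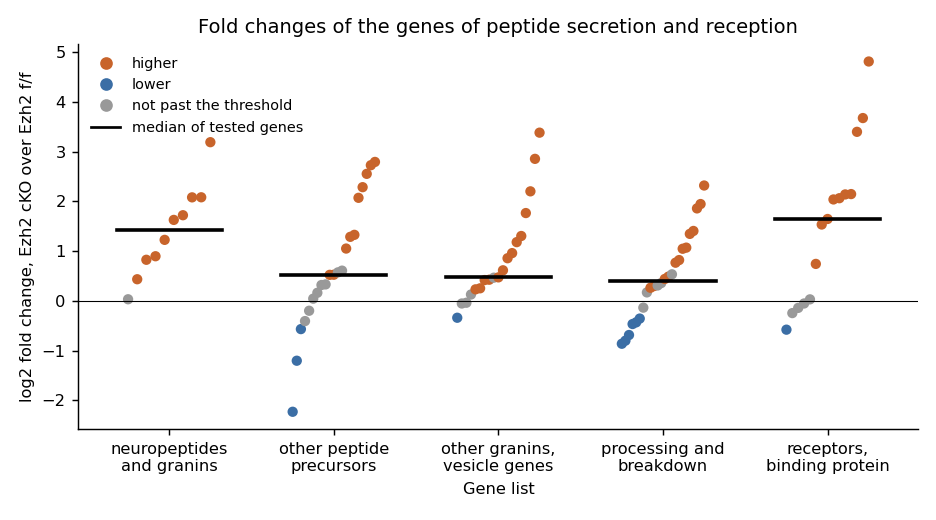
Log2 fold changes of the tested genes in the set and in 4 lists of related genes, 1 point per gene, with the median of each list as a black line. Points are orange where called higher, blue where called lower and grey otherwise, and Vip and Avp, at or below 3 counts in every library of a group, are not drawn.

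Of the receptor list, 10 of 15 tested genes were higher, 1 lower (Crhr2) and 4 not called, with a median log2 fold change of 1.64. Among all genes tested 34.7% were higher and 33.6% lower, with a median of 0.02. Oprk1 and Sstr4 passed the filter on low counts only through their Ezh2 cKO libraries. Without them 8 of 13 genes were higher, with a median of 1.53, beside 33.7% of all genes that passed in both groups. Of 19 receptor genes 4 were not tested. The genes not called included Adcyap1r1 and Sstr2, the most abundant ones in Ezh2 f/f, while those with the largest rises, Cckbr, Sstr4 and Oprk1, were below 0.4 FPKM in both Ezh2 f/f libraries.

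Other peptide precursors served as the closest comparison with the set. Of 32 such genes 23 were tested, and 11 were higher, 4 lower and 8 not called, with a median log2 fold change of 0.52. The share of higher genes was 47.8%, beside 34.7% of all genes tested. Avp passed the filter only through Ezh2 f/f and Vip, Calca and Pthlh only through Ezh2 cKO. Without these, 8 of 19 genes were higher and 3 lower, beside 33.7% and 34.9% of all genes that passed in both groups. Vip had 3 and 2 counts in Ezh2 f/f against 265 and 220 counts in Ezh2 cKO, a ratio of 96.4 in counts per total (exact 95% interval 41.0 to 298, counting error only). Cartpt rose from 12 and 42 counts to 193 and 210 (log2 fold change 2.79), and Tac2, the neurokinin B precursor, from 15 and 36 to 163 and 159 (2.55), as did its receptor gene Tacr3 (1.53). The Ezh2 f/f libraries of both precursors lay far apart, and the log2 fold change of Cartpt was 2.12 when replicate 1 of that group was left out and 4.02 when replicate 2 was, while that of Tac2 was 3.38 in the latter case. Of the further opioid precursors, Pomc was called higher at 1.33, a call that was lost with DESeq2, with limma on unfiltered FPKM and without Ezh2 cKO replicate 1 (adjusted p up to 0.194), and Pnoc was at 0.33 (adjusted p = 0.113).

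Lower precursors were Avp, Nmb, Gal and Nts. Avp, the vasopressin precursor, known mainly from the hypothalamus, went from 80 and 242 counts in Ezh2 f/f to 0 in each Ezh2 cKO library, so that it was at least 108-fold lower against a floor of 3 counts over the group. With 1 library left out this bound was 169-fold without Ezh2 f/f replicate 1, 51.8-fold without Ezh2 f/f replicate 2, and 53.0-fold and 55.0-fold without replicate 1 and replicate 2 of Ezh2 cKO. Nmb, for neuromedin B, fell by 2.23 on the log2 scale, from 247 and 259 counts to 61 and 54. Gal, for galanin, was at -1.20 and lost its call with DESeq2, with limma on unfiltered FPKM, and without Ezh2 f/f replicate 2 or Ezh2 cKO replicate 1 (adjusted p up to 0.110). Nts, for neurotensin, was at -0.57 and lost its call with limma on unfiltered FPKM (adjusted p = 0.0675). Npy, for neuropeptide Y, was at 138 and 120 FPKM in Ezh2 f/f against 121 and 117 FPKM in Ezh2 cKO and did not pass the test (log2 fold change -0.20, adjusted p = 0.0895).

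**Figure D5:**
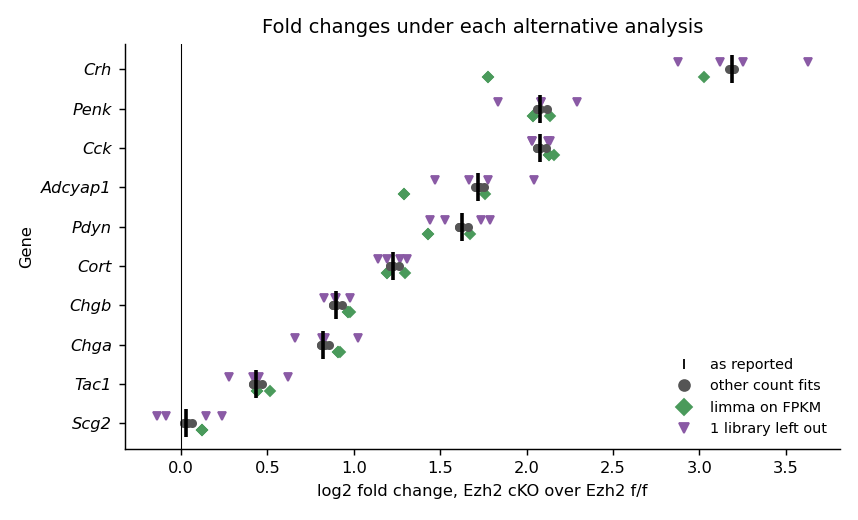
Log2 fold change of each gene as reported (black bar), under other fits on counts (circles), under limma on FPKM (diamonds) and with 1 library left out (triangles). All values of 9 genes lie above 0, and those of Scg2 run from -0.14 to 0.23.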

How the data were processed

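RNA of GLAST-selected cortical cells was sequenced on an Illumina HiSeq 2500. The authors deposited, without normalization, the counts of reads per gene in each of 4 libraries, and FPKM values, which equal the counts divided by gene length and library total in every library. The labels list Bowtie2 2.2.3, TopHat2 2.0.12, HTSeq 0.6.0 and build mm9, with no role. The strand setting is not given in the sources used here. Columns of the authors' own comparison (mean, fold change, p-values) were not used, and 0 sample columns were left out. Coordinates are printed as deposited. Their build is uncertain, since only 581 of 28799 genes match GENCODE M21 (GRCm38).

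Genes were filtered with filterByExpr and tested by edgeR's quasi-likelihood test with the group as the only term (edgeR 4.0.16, limma 3.58.1 and DESeq2 1.42.0 in R 4.3.3, Python 3.11.15). Standard errors are the log2 fold change over the root of the F statistic. Replicates were distinct libraries, their counts lying further apart than sampling gives (chi-square per degree of freedom 8.92 and 5.68). With 2 libraries against 2, an exact permutation test of 1 gene cannot go below p = 0.333, so p-values come from the fit across all genes. Each test was tried on simulated data with 200 changed genes, whereas 11481 genes were called in these libraries. The simulation therefore does not give error rates for these data. All 10 genes and Ezh2 are named, and from each list any tested gene may be named, those with the 3 largest and 3 smallest fold changes first. The marker genes named outside this rule and the untested genes were chosen after their values were seen. These markers were Drd1, Drd2, Adora2a, Ppp1r1b, Tubb3, Slc17a7, Camk2a, Mobp, Aif1, P2ry12 and the interneuron genes. Members, lists and tests were chosen with earlier results of these data known. Alternatives were DESeq2, its size factors, other filters, limma on log2(FPKM + 1) and log2(FPKM + 0.1), a replicate block and each library left out.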

Additional observations from a re-analysis of the deposited data

How the results depend on the processing

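Of 119 fold changes of the 10 genes recomputed under 12 alternatives, 112 kept their direction and their side of the threshold, 5, all of Tac1, kept the direction only, and 2, both of Scg2, changed sign. Crh could not be tested with at least 50 counts on average. Without 1 library the log2 fold change of Scg2 ranged from -0.14 (without Ezh2 f/f replicate 1) to 0.23, and it was -0.09 without Ezh2 cKO replicate 2. Between 8 and 9 of the 10 genes were called higher and 0 lower under every alternative. Over all genes, 4699 to 5831 were higher and 4518 to 5747 lower. Of 144 counts of calls compared, 130 were within 1.5 times of the reported one. The number of lower peptide precursors was 2, instead of 4, with limma on unfiltered log2(FPKM + 1). The number of lower vesicle genes was 0, instead of 1, in the 3 limma fits, and 0 to 1 without 1 library. The number of lower receptor genes was 0, instead of 1, with DESeq2, without a filter on low counts, in the 3 limma fits and with the replicate block, and 0 to 1 without 1 library. The cause was not tested. The libraries share only a number between the groups, with a correlation of 0.11 between the deviations of those numbered 1. The replicate block gave 5795 higher and 5599 lower genes over all, left the count of the 10 genes at 9 and changed none of their calls. In an alternative chosen after seeing the data, only genes that passed the filter in both groups were counted, and no count of calls moved by over 1.5 times (4921 higher and 5098 lower over all genes). Depth limits what can be said of Crh in Ezh2 f/f and of Oprm1 and Cckar, which had between 2 and 13 counts per library.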
